A study of Homo sapiens with 12 samples.

Results

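The Siglecs are cell-surface lectins of leukocytes that bind sialic acid, and 8 of the family's genes are described here: SIGLEC1, CD33, SIGLEC5, SIGLEC6, SIGLEC7, SIGLEC9, SIGLEC10 and SIGLEC11. They were chosen by symbol from an expression table of 20307 genes, and each of the 8 had 1 entry. The table holds 12 RNA-seq libraries in 4 groups of 3. Group C was H1299, a human lung carcinoma line, labelled wild type, and group OE was H1299 labelled as overexpressing DCBLD2, a neuropilin-like membrane protein. Groups TAM-C and TAM-OE were THP-1, a human monocytic leukemia line of wild-type genotype that takes on macrophage features with the phorbol ester PMA. Both THP-1 groups received PMA for 24 h and were then kept for 48 h with material of H1299: control H1299 for TAM-C and H1299 labelled DCBLD2 for TAM-OE. The sample labels call this material supernatant and the design text calls it a co-culture, so the route of exposure is not settled here. No THP-1 library without PMA or without H1299 material was analysed here, so each THP-1 value is that of a PMA-treated, H1299-exposed cell line rather than of a tumour macrophage. Nothing in the labels tells whether the 3 libraries of a group are separate cultures. The p-values then reflect how these libraries varied, and that variation may be technical.

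Total reads assigned to genes ranged from 14578887 to 23388187 in the H1299 libraries and from 18606739 to 26787853 in the THP-1 libraries. DCBLD2 went against its label. Its level was between 147.73 and 246.59 TPM (a transcript level corrected for gene length and library size) in the 3 C libraries and between 92.5 and 104.5 in the 3 libraries labelled DCBLD2 overexpression, a log2 fold change of -1.27 ± 0.17 (SE, adjusted p = 0.00284, edgeR's quasi-likelihood test). All groups are therefore named by their labels, and "higher" or "lower" in TAM-OE means relative to TAM-C as labelled. In THP-1 the share of reads on mitochondrial genes was 3.48 to 3.51% in TAM-C and 2.46 to 2.58% in TAM-OE, and that on ribosomal protein genes was 3.73 to 3.75% against 5.14 to 5.42%. These shares moved with the groups, and their part in the results below was not tested.

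Siglecs read the sialic acids that cap glycans on the cell's own surface, on neighbouring cells and on secreted mucins. Most members carry immunoreceptor tyrosine-based inhibitory motifs (ITIMs) that Src-family kinases phosphorylate and that then recruit the phosphatases SHP-1 and SHP-2, which dampens activating signals. SIGLEC1 (CD169, sialoadhesin) has a long extracellular part and no such motif, and serves in adhesion and in the capture of sialylated particles. A few relatives, among them SIGLEC14 and SIGLEC15, instead pair with the activating adaptor DAP12, encoded by TYROBP. On macrophages and monocytes the inhibitory members are known as receptors through which sialylated tumour cells restrain phagocytosis and inflammatory output.

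SIGLEC1 lies on chromosome 20 (chr20:3686970-3707128, minus strand, GRCh38 with GENCODE 29), and the other members lie on the long arm of chromosome 19. From SIGLEC11 (chr19:49948985-49961172, minus strand) the order continues with SIGLEC9 (chr19:51124908-51136651, plus), SIGLEC7 (chr19:51142299-51153526, plus), CD33 (chr19:51225064-51243860, plus), SIGLEC10 (chr19:51410021-51417803, minus), SIGLEC6 (chr19:51519525-51531856, minus) and SIGLEC5 (chr19:51612091-51646889, minus). The deposited table gives the members with the identifiers ENSG00000088827 (SIGLEC1), ENSG00000105383 (CD33), ENSG00000268500 (SIGLEC5), ENSG00000105492 (SIGLEC6), ENSG00000168995 (SIGLEC7), ENSG00000129450 (SIGLEC9), ENSG00000142512 (SIGLEC10) and ENSG00000161640 (SIGLEC11). GENCODE 29 lists each of these identifiers as a protein-coding gene.

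The start-site windows of the 2 members with the highest THP-1 levels, CD33 and SIGLEC9, are shown because PU.1, the ETS factor of the myeloid lineage, is known to act at promoters of myeloid receptor genes. Each runs 5′ to 3′ from 250 bases before to 50 after a RefSeq transcription start (GRCh38.p14), at chr19:51224830-51225129 on the plus strand for CD33 and at chr19:51124630-51124929 on the plus strand for SIGLEC9. Capitals mark the PU.1 core letters GAGGAA on either strand, which read TTCCTC where the match is on the minus strand.
CD33: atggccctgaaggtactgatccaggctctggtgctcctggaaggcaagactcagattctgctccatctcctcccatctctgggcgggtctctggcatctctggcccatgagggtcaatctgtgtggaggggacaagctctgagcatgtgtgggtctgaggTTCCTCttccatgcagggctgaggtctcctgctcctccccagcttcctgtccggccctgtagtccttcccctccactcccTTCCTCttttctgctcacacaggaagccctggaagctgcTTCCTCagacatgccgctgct
SIGLEC9: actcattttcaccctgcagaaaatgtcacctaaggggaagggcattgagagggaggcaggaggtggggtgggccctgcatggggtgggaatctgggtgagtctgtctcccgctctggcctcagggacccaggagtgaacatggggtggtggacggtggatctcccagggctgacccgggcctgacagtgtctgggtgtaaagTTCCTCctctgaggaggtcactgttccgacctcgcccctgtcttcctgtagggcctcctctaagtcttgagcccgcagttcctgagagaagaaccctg
The CD33 window held 3 matches and this SIGLEC9 window 1. A second SIGLEC9 start in RefSeq gave an overlapping window with 2. RefSeq windows were found for 7 of the 8 members, 8 windows in all. SIGLEC6 had 2 matches and SIGLEC7 had 1, whereas the windows of SIGLEC5, SIGLEC10 and SIGLEC11 had 0. Of all 35116 promoter windows of the same length, 27.9% held at least 1 match, so presence of these letters is common. The interferon-stimulated response element, searched on both strands as GAAA, any 2 bases and GAAA, was in 0 of the 8 windows and in 3.57% of all windows. In an alignment with free ends the second window of SIGLEC9 matched that of SIGLEC7, its neighbour, at 130 of 142 aligned bases (91.5%). CD33 matched its neighbours less, SIGLEC7 at 102 of 145 (70.3%) and SIGLEC10 at 55 of 77 (71.4%). Members further apart gave similar values, such as SIGLEC11 with SIGLEC6 at 143 of 210 (68.1%) and CD33 with SIGLEC6 at 205 of 273 (75.1%). A value near 70% therefore does not mark neighbours. SIGLEC1 had no window in the table used here, and a match is a description of letters and not a binding site.

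In THP-1, CD33 was by far the most abundant of the 8 transcripts, and its level was close in both groups. In TAM-C the order by mean TPM was CD33 (33.9 ± 1.81, SD, n = 3), SIGLEC9 (3.17 ± 0.304), SIGLEC10 (2.61 ± 0.175), SIGLEC5 (1.53 ± 0.175), SIGLEC7 (1.49 ± 0.373), SIGLEC11 (0.522 ± 0.187), SIGLEC1 (0.165 ± 0.0414) and SIGLEC6 (0.034 ± 0.0589). Of these neighbours only SIGLEC5 and SIGLEC7 overlapped over the 3 libraries. In TAM-OE CD33 (32.3 ± 1.498) and SIGLEC9 (7.62 ± 0.552) kept the lead, and SIGLEC1 (2.61 ± 0.218) took the third place. SIGLEC5 (1.99 ± 0.190) came next, and SIGLEC7 (1.13 ± 0.233), SIGLEC10 (1.05 ± 0.360) and SIGLEC11 (0.816 ± 0.306) formed a band in which each overlapped its neighbour. SIGLEC6 was at 0 in all 3 TAM-OE libraries. SIGLEC1 thus moved from the seventh to the third place and SIGLEC10 from the third to the sixth.

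**Figure D1:**
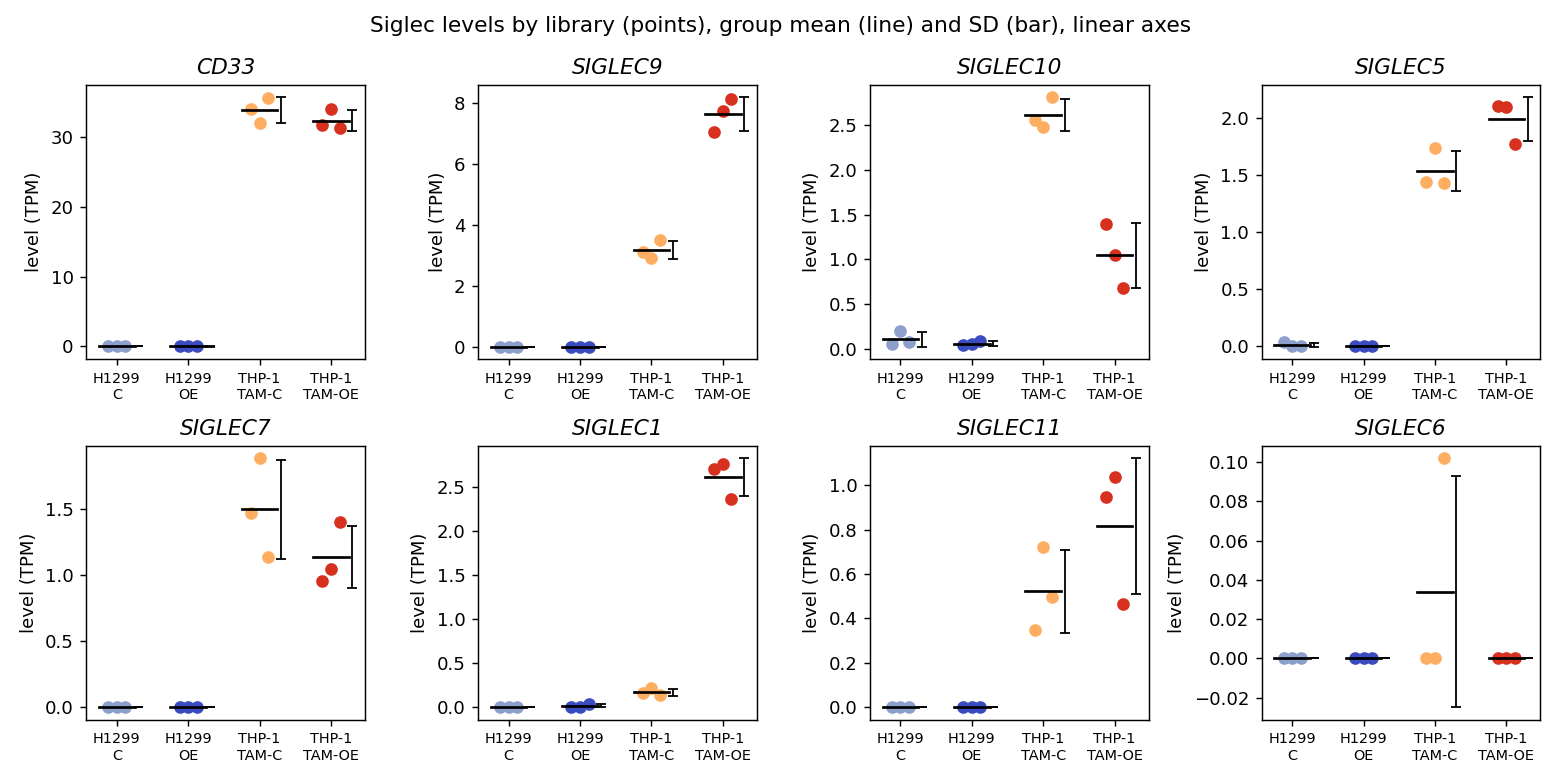
TPM of each Siglec (vertical axes, linear and separate for each gene) in the 3 libraries of each group (points), with the group mean (line) and SD (bar). The TAM-OE points of SIGLEC1 and SIGLEC9 lie above all TAM-C points, those of SIGLEC10 lie below them, and the H1299 points lie at or near 0; the SIGLEC6 panel rests on 4 reads in 1 library.

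The summed level of the 8 members was 43.4 ± 1.66 TPM in TAM-C (41.9 to 45.2, SD, n = 3) and 47.5 ± 1.958 TPM in TAM-OE (46.0 to 49.7). Without CD33 the sum was 9.06 to 9.93 TPM in TAM-C and 14.8 to 15.7 TPM in TAM-OE, so the ranges of the minor members' sum were well apart. CD33 made up 76.3 to 79.0% of the sum in TAM-C and 67.7 to 68.4% in TAM-OE. The share of SIGLEC9 was 6.94 to 7.76% against 14.998 to 17.6%. That of SIGLEC1 was 0.286 to 0.501% against 5.14 to 5.79%, and that of SIGLEC10 was 5.91 to 6.22% against 1.48 to 2.99%. The make-up of the Siglec transcripts therefore differed between the groups while the largest component did not change its own level by a called amount.

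**Figure D2:**
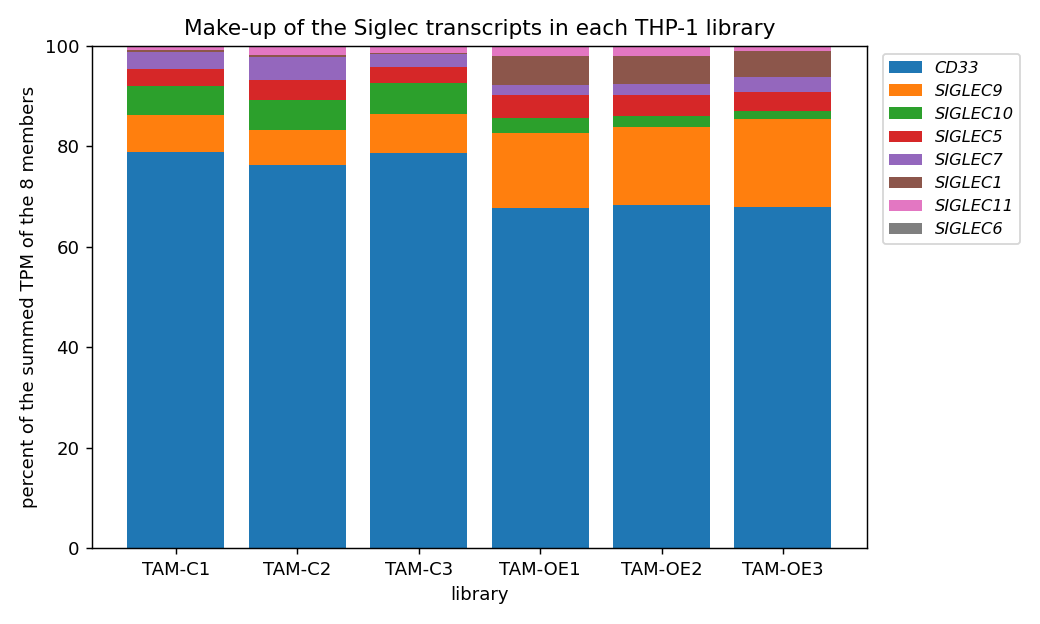
Percent of the summed TPM of the 8 members (vertical axis) taken by each gene in the 6 THP-1 libraries (bars). CD33 fills 76.3 to 79.0% of each TAM-C bar and 67.7 to 68.4% of each TAM-OE bar, and the SIGLEC9 and SIGLEC1 segments are wider in TAM-OE.

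The comparison of TAM-OE with TAM-C asks how Siglec transcripts differ in macrophage-like THP-1 by which H1299 line they met. SIGLEC1, SIGLEC9, SIGLEC5 and SIGLEC11 rose and SIGLEC10 fell, at an adjusted p under 0.05 in edgeR's quasi-likelihood test. CD33 and SIGLEC7 were not called, and SIGLEC6 did not pass the filter on low counts. So 7 of the 8 members were tested and 5 were called. Of all 13120 genes tested 68.1% were called (34.5% higher and 33.6% lower), so a call by itself is common in this comparison and the count of members is near the background. In TPM, 4 members did not overlap between the groups, SIGLEC1, SIGLEC9 and SIGLEC5 with TAM-OE higher and SIGLEC10 with TAM-OE lower, where 64.9% of the genes tested did not overlap. SIGLEC1, SIGLEC9 and SIGLEC10 were also at least 2-fold changed, as were 7.69% of the genes tested. These are bulk libraries, in which fewer cells expressing a gene and less of its RNA per cell cannot be told apart.

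SIGLEC1 had the largest difference of the members. It stood at 0.155, 0.210 and 0.129 TPM in TAM-C replicates 1 to 3, from 14, 14 and 9 reads, and at 2.71, 2.77 and 2.36 TPM in TAM-OE replicates 1 to 3, from 241, 273 and 158 reads. All TAM-OE libraries were far above all TAM-C libraries. The log2 fold change was 4.0 ± 0.18 (SE, adjusted p = 2.44e-16), or 16.0-fold, which was the 10th largest rise among the 13120 genes. The gene shares no 50-base stretch of its transcripts with another annotated gene, so its reads can be placed. SIGLEC1 is known as an interferon-inducible marker of macrophages. Its TAM-C level rested on few reads, and the count in each TAM-C library was above the floor of 3 reads used here for detection.

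SIGLEC9, an ITIM-bearing receptor of monocytes, macrophages and neutrophils that binds sialylated mucins, had 3.10, 2.91 and 3.50 TPM in TAM-C and 7.02, 7.72 and 8.11 TPM in TAM-OE. Every TAM-OE library was above every TAM-C library. The log2 fold change was 1.29 ± 0.13 (SE, adjusted p = 2.93e-09), a 2.45-fold rise that ranked 272nd among all genes by rise. In TPM it gained more than SIGLEC1 did: the difference of the means was 4.45 TPM for SIGLEC9 and 2.45 TPM for SIGLEC1.

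SIGLEC10, an ITIM-bearing receptor known to bind CD24, was the only member that fell. It had 2.56, 2.48 and 2.81 TPM in TAM-C and 1.40, 1.05 and 0.681 TPM in TAM-OE, and the groups did not overlap. Its log2 fold change was -1.26 ± 0.19 (SE, adjusted p = 2.57e-06), which ranked 279th among all genes by fall. The TAM-OE libraries differed among themselves more than the TAM-C libraries did, with 21 to 50 reads against 77 to 88. Antisense genes overlap SIGLEC10 in GENCODE 29, and the sources used here do not say whether counting used strand. Whether reads of these partners were counted for SIGLEC10 is therefore not known. Antisense genes overlap SIGLEC6 and SIGLEC7 as well. Of its transcripts' 50-base stretches, 8.43% occur in another gene.

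SIGLEC5, an ITIM-bearing receptor of myeloid cells, and SIGLEC11, an ITIM-bearing receptor of tissue macrophages and microglia, were called higher, with calls that some alternatives ended. SIGLEC5 had 1.43, 1.74 and 1.43 TPM in TAM-C and 2.11, 2.09 and 1.77 TPM in TAM-OE. Its groups did not overlap, and the gap between the nearest libraries was narrow. The log2 fold change was 0.42 ± 0.17 (SE, adjusted p = 0.0323). This call was lost without any 1 of TAM-C replicates 1 and 3 and TAM-OE replicates 1 and 2 (adjusted p = 0.0941, 0.0884, 0.0926 and 0.0857) and with DESeq2 (adjusted p = 0.146). SIGLEC11 had 0.349, 0.721 and 0.496 TPM in TAM-C and 0.946, 1.04 and 0.466 TPM in TAM-OE. TAM-OE replicate 3 lay below TAM-C replicates 2 and 3, so the groups overlapped. The log2 fold change was 0.87 ± 0.31 (SE, adjusted p = 0.0172), and the call was lost without TAM-C replicate 1, TAM-OE replicate 1 or TAM-OE replicate 2 (adjusted p = 0.0946, 0.0893 and 0.0758) and with DESeq2 (adjusted p = 0.0903).

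Both of these genes share sequence with close copies. The entry for SIGLEC5 spans the whole of SIGLEC14, and GENCODE 29 places the symbol SIGLEC5 on a further model inside the same span. Of the 50-base stretches of its transcripts, 100% occur in that further model, which is not an entry of the table, and 34.9% in SIGLEC14, and its estimated counts were not whole numbers in 5 of the 6 THP-1 libraries. SIGLEC14, the activating partner of SIGLEC5, had a nearly equal log2 fold change of 0.41 ± 0.15 (adjusted p = 0.0206), and which of them the reads come from is uncertain. For SIGLEC11, 38.5% of the 50-base stretches occur in another gene, 24.9% in SIGLEC16, which is not an entry of the table.

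CD33, an ITIM-bearing receptor that marks the myeloid lineage, had 34.0, 32.0 and 35.6 TPM in TAM-C and 31.7, 34.0 and 31.2 TPM in TAM-OE, and the groups overlapped. Its log2 fold change was -0.06 ± 0.06 (SE, adjusted p = 0.390), with a 95% interval from -0.17 to 0.06. This interval is narrow, and 89.4% of genes tested had a larger change in absolute size. SIGLEC7, an ITIM-bearing receptor of natural killer cells and monocytes, had 1.47, 1.88 and 1.14 TPM in TAM-C and 0.955, 1.04 and 1.40 TPM in TAM-OE, from 15 to 22 and 24 to 28 reads. The groups overlapped. Its log2 fold change from counts was 0.27 ± 0.29 (SE, adjusted p = 0.417, 95% interval -0.30 to 0.84), whereas limma on log2(TPM + 1) gave -0.22 (adjusted p = 0.1803), so no direction can be given. The number of reads per TPM of SIGLEC7 was 0.65 higher in TAM-OE on the log2 scale, a shift in the ratio of the deposited values as large as in 0.2995% of 12354 genes. SIGLEC6, known from trophoblast and mast cells, had 4 reads in TAM-C replicate 3 (0.102 TPM) and 0 in the other 5 THP-1 libraries.

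**Figure D3:**
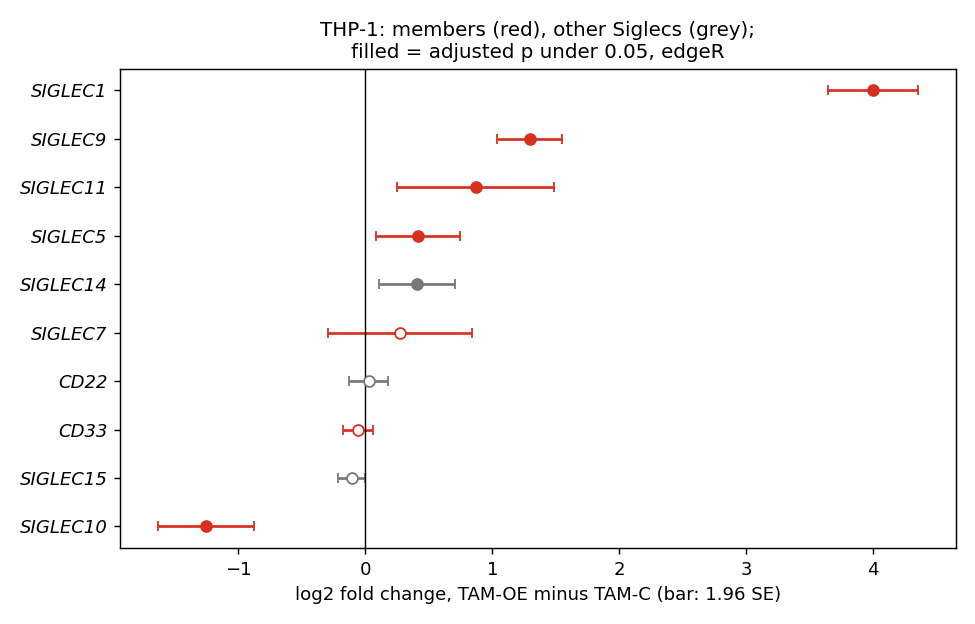
Log2 fold change of TAM-OE over TAM-C (horizontal axis; bar, approximate 95% interval from the SE) for the 7 tested members (red) and 3 other Siglecs tested (grey), filled where the adjusted p was under 0.05. SIGLEC1 at 4.0 and SIGLEC9 at 1.29 lie furthest to the right, SIGLEC10 at -1.26 to the left, and the bars of CD33 and SIGLEC7 cross 0.

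The identity of the cells was read from marker lists. Of 15 monocyte and macrophage markers, 13 reached a mean of 1 TPM in TAM-C and 13 in TAM-OE, and their summed level was 2564.5 to 2573.8 TPM in TAM-C and 3670.9 to 3729.8 TPM in TAM-OE. Most of the rise in this sum came from TYROBP, with means of 869 TPM in TAM-C and 1733 TPM in TAM-OE. Of the 14 markers tested, 10 rose and 3 fell, where 34.5% of all genes tested in THP-1 rose and 33.6% fell. The markers that fell were ITGAM (132 TPM in TAM-C and 69.7 in TAM-OE), ITGAX (330 and 189) and CD68 (318 and 289). Summed carcinoma cell markers in THP-1 were 186 to 197 TPM in TAM-C and 155 to 165 TPM in TAM-OE, against 3006.8 to 3732.4 TPM in H1299. Most of the THP-1 sum came from CAV1 (146 ± 4.71 TPM in TAM-C and 110 ± 5.57 in TAM-OE), and MET was near its H1299 level (18.2 ± 0.163 and 20.2 ± 0.0386 TPM). The keratins KRT8 and KRT18, at 460 to 1379 TPM on average in H1299, were far lower in THP-1, and their means went against the sum. KRT8 had 0.283 TPM in TAM-C and 0.524 in TAM-OE, and KRT18 had 0.204 and 1.014, and neither was tested there. Of 7 carcinoma markers tested in THP-1, 2 rose (KRT7 and MET), 2 fell (CAV1 and EGFR) and 3 were not called. KRT19 and EPCAM were at 0 in THP-1 and under 1 TPM in H1299, so they do not separate the lines. B cell markers summed to 4.46 to 5.56 TPM in TAM-C and 2.79 to 4.83 TPM in TAM-OE, with MS4A1 and BLK at 0. T and NK cell markers summed to 160.52 to 169 TPM and 203 to 212 TPM, most of it from GNLY, with CD3E and CD3G at 0. Of the 3 tested, GNLY rose and 2 fell, NCR1 (4.58 TPM in TAM-C and 2.28 in TAM-OE) and NKG7 (8.31 and 6.17). Mast cell and granulocyte markers summed to 61.9 to 63.3 TPM and 40.1 to 42.6 TPM, with CPA3, CLC and FCGR3B at 0. The macrophage, carcinoma, GNLY-led and granulocyte sums moved with the THP-1 groups, and their part in the Siglec differences was not tested.

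In H1299 the members were close to absent in both groups. SIGLEC6, SIGLEC7, SIGLEC9 and SIGLEC11 had 0 reads in all 6 libraries. SIGLEC1 had 2 reads and CD33 had 1, all in OE replicate 3, and SIGLEC5 had 1 read in C replicate 1. SIGLEC10 was the only member with reads in every H1299 library, at 0.049, 0.199 and 0.071 TPM in C and 0.038, 0.054 and 0.085 TPM in OE. These came from 1 to 5 reads per library, the groups overlapped, and both sums are near the floor of 3 reads. None of the 8 members passed the filter, so 0 were tested and 0 called, where 20.9% of the 12773 genes tested were called (10.3% higher and 10.6% lower). No member's TPM separated the 2 H1299 groups, where 37.5% of the genes tested did. With 0 to 15 reads over the 6 libraries the members could hardly separate, so this is no result about them. Without a filter 4 members could be tested with edgeR's quasi-likelihood test and 0 had an unadjusted p under 0.05. DESeq2 gave an adjusted p to 0 members, so it could call none. A change of the Siglecs in H1299 was not detectable at this depth.

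All 7 members that could be tested between the lines were higher in THP-1 than in H1299. They passed the filter on low counts only through THP-1, so this direction was fixed by the filter and the count supports nothing. In that comparison 89.7% of 14244 genes were called, with 44% of all tested higher and 45.7% lower in THP-1. Over 6 libraries each, SIGLEC9 had 704 reads in THP-1 and 0 in H1299, which is at least 205-fold higher relative to library totals when H1299 is set to a floor of 3 reads over the line. On the same floor SIGLEC11 was at least 41.4-fold and SIGLEC7 at least 39.7-fold higher. CD33 had 3116 reads against 1, a ratio of 2728 (95% exact interval 489 to 107800, counting error only), and SIGLEC1 had 709 against 2, a ratio of 310 (85.6 to 2568). SIGLEC5 had a ratio of 353 (63.0 to 13971). SIGLEC10 was the least line-restricted, with 368 reads against 15 and a ratio of 21.5 (12.9 to 38.8). The monocyte and macrophage markers summed to 138.67 to 201.5 TPM in H1299, nearly all of it CD68, with PTPRC, CD4 and MARCO at 0.

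Whether the 2 lines responded differently could be tested only for SIGLEC10, since it alone had more than 3 reads in each group. The difference between its THP-1 and H1299 log2 fold changes was -0.95 ± 0.78 (SE, adjusted p = 0.374), where 38.7% of 14244 genes were called. It was not called by edgeR's quasi-likelihood test, 0 members had an unadjusted p under 0.05, and with 15 reads in H1299 the interval is wide. The falls and rises of the members in THP-1 are therefore not shown to be particular to that line.

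The genes whose levels ran most like each member were found from Pearson's r of log2(TPM + 1) over the 12 libraries among 13209 genes. The points share the difference between the 2 lines, so these are descriptions. For SIGLEC1 they were CMPK2 (r = 0.9912), a mitochondrial nucleotide kinase known to be interferon-inducible, CFD (0.9891), the complement protease factor D, and PKIB (0.9840), an inhibitor of protein kinase A. CMPK2 had mean levels of 0.267 TPM in TAM-C and 2.09 TPM in TAM-OE, near those of SIGLEC1. For SIGLEC9 they were CYP7B1 (0.9994), an oxysterol hydroxylase, SERPINB2 (0.9992), the plasminogen activator inhibitor of monocytes, at 32.3 TPM in TAM-C and 163 TPM in TAM-OE, and WNT5A (0.9988), a secreted Wnt ligand. For SIGLEC10 they were the glutamate transporter SLC1A2 (0.9921), PPP1R27 (0.9901) at 35.8 and 7.42 TPM, and the cytokine receptor chain CRLF2 (0.9901). CD33 ran with ABCG1 (0.9999), the cholesterol exporter, PARVG (0.9999), a leukocyte parvin, and LPL (0.9998), lipoprotein lipase, all with similar levels in both THP-1 groups. SIGLEC5 ran with the ITAM-bearing receptor NFAM1 (0.9988), the inhibitory Fc receptor FCGR2B (0.9984) and the decoy receptor IL1R2 (0.9982). SIGLEC7 ran with C22orf42 (0.9937), the adaptor SLA (0.9920) and the homeobox gene EMX1 (0.9916). SIGLEC6 and SIGLEC11 had group means under 1 TPM and were given no such list.

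Of 7 other family genes, 6 were in the table and 3 were tested in THP-1, of which SIGLEC14 rose and 2 were not called. SIGLEC15, a DAP12-linked member known from osteoclasts and tumour macrophages, stood at 19.0 ± 0.576 TPM in TAM-C and 17.8 ± 0.726 in TAM-OE (log2 fold change -0.11, adjusted p = 0.0775). That places it second to CD33 among all Siglecs of the table. CD22, the B cell Siglec, had 9.29 ± 1.08 and 10.2 ± 0.399 TPM (0.03, adjusted p = 0.785). It was also the one Siglec tested within H1299, at 1.67 ± 0.280 TPM in C and 2.004 ± 0.530 in OE (adjusted p = 0.970). MAG, SIGLEC8 and SIGLEC12 did not pass the filter. SIGLEC14 stood at 1.15 ± 0.168 TPM in TAM-C and 1.47 ± 0.181 in TAM-OE. Its call was lost in 8 of 16 alternatives. Among these were the fits without TAM-C replicate 1 or 3 or TAM-OE replicate 2, DESeq2, and limma on either TPM scale.

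Among 13 genes that signal for or from Siglecs, 7 rose, 4 fell and 2 were not called in THP-1. The median of their log2 fold changes was 0.13, beside 0.00046 over all genes, of which 34.5% rose and 33.6% fell. TYROBP, the DAP12 adaptor, had 869 ± 12.8 TPM in TAM-C and 1733 ± 11.7 in TAM-OE (log2 fold change 1.03 ± 0.02, adjusted p = 3.25e-24). The Src-family kinases that phosphorylate such motifs moved in both directions: LYN had 55.3 ± 2.54 and 65.7 ± 1.68 TPM (0.30 ± 0.03) and FYN rose by 0.13, whereas FGR had 252 ± 3.27 and 133 ± 6.17 TPM (-0.88 ± 0.02) and SRC had a change of -0.13. The phosphatases that bind the ITIMs also split, with PTPN6 (SHP-1) at 198 ± 2.35 and 167 ± 5.72 TPM (-0.21) and PTPN11 (SHP-2) at 40.1 ± 3.14 and 45.5 ± 0.293 TPM (0.22). CBL, a ubiquitin ligase, was the remaining gene that fell (-0.21). INPP5D, which encodes SHIP-1, and SYK were not called (0.03 and -0.01). The inhibitory and activating parts of the machinery were thus both expressed in both groups.

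Genes of sialic acid supply and removal were read as transcripts in the THP-1 cells themselves, and sialic acid was not measured. Of 7 synthesis and transport genes, 1 rose, 2 fell and 4 were not called (median -0.08). SLC17A5, the lysosomal exporter of free sialic acid, had 123 ± 3.21 TPM in TAM-C and 66.4 ± 1.66 in TAM-OE (-0.85 ± 0.03, adjusted p = 5.46e-20). NANP, a phosphatase of the synthesis, fell by 0.41 on the log2 scale and NANS, the synthase, rose by 0.17. GNE, which opens the pathway, was not called (-0.09, adjusted p = 0.234). All 3 genes tested of 5 in the list of sialidases and their stabiliser fell: NEU1, the lysosomal sialidase, had 129 ± 1.85 and 92.7 ± 4.798 TPM (-0.48 ± 0.03), NEU3, the plasma membrane sialidase, had 2.43 ± 0.123 and 1.31 ± 0.130 TPM (-0.68 ± 0.13), and CTSA, the protein that stabilises NEU1, changed by -0.14. In a comparison with 33.6% of genes called lower, 3 genes are few. The calls of NANP, NANS and CTSA were lost when every gene was given the larger spread of the H1299 libraries.

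Of 13 sialyltransferases tested of 20, 4 rose, 6 fell and 3 were not called (median -0.05). Over all genes tested in THP-1, 34.5% rose and 33.6% fell. ST3GAL6 had 15.1 ± 1.20 TPM in TAM-C and 7.14 ± 0.447 in TAM-OE (-1.07 ± 0.08, adjusted p = 2.87e-11). ST8SIA4, a polysialyltransferase, moved the other way with 5.76 ± 0.635 and 9.88 ± 1.002 TPM (0.85 ± 0.07, adjusted p = 2.97e-11). ST6GALNAC4 had 111.5 ± 0.906 and 84.9 ± 2.13 TPM (-0.36), a call that was lost with the spread of the H1299 libraries. ST6GAL1, which makes the alpha-2,6-linked sialic acids preferred by CD22, was not called (-0.05, adjusted p = 0.340). Of 5 tested genes of proteins known as Siglec ligands, 2 rose, 2 fell and 1 was not called (median -0.16). CD52, a glycopeptide known to bind SIGLEC10, had 1757 ± 15.8 and 1264 ± 53.2 TPM (-0.44 ± 0.03, adjusted p = 5.75e-14), and AOC3, an amine oxidase known to bind SIGLEC9 and SIGLEC10, had 0.679 ± 0.182 and 0.238 ± 0.0637 TPM (-1.66). LGALS3BP had 28.2 ± 0.733 and 39.3 ± 2.94 TPM (0.50 ± 0.05), and SPN, the mucin CD43, rose by 0.19, a call that was lost with limma on either TPM scale. CD24 did not pass the filter in THP-1 and had 0.222 ± 0.000577 and 0.380 ± 0.154 TPM.

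Interferon-response genes were listed because SIGLEC1 is known to be one. Of 20 tested in THP-1, 18 rose, 0 fell and 2 were not called, and the median of their log2 fold changes was 1.59. Of all genes tested in THP-1, 34.5% rose and 33.6% fell. IFI27 had 48.5 ± 1.51 TPM in TAM-C and 456 ± 7.59 in TAM-OE (3.27 ± 0.04, adjusted p = 1.12e-26), IFI6 had 395.5 ± 6.62 and 857 ± 19.97 TPM (1.15 ± 0.02), and OAS3 had 8.64 ± 0.447 and 28.3 ± 0.628 TPM (1.79 ± 0.04). USP18 and STAT2 were not called (0.00 and 0.04). The list was chosen with earlier results of these data known, so its direction is no independent evidence. SIGLEC1 lay within the range of the list on the log2 scale, in which IFI44L (4.84), IFIT1 (4.14) and IFI44 (3.97) changed most, these 3 being named after their values were seen.

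The same lists were read in H1299, the line that the THP-1 cells met, where 20.9% of all genes tested were called against 68.1% in THP-1. Of 15 sialyltransferases tested, 1 rose, 5 fell and 9 were not called (median -0.14). ST8SIA5 had 8.06 ± 1.28 TPM in C and 4.65 ± 0.301 in OE (-1.13 ± 0.21, adjusted p = 0.00871), ST6GALNAC2 had 4.60 ± 2.12 and 1.95 ± 0.600 TPM (-1.39, adjusted p = 0.0131), and ST3GAL5, the GM3 ganglioside synthase, had 6.55 ± 0.125 and 3.87 ± 0.509 TPM (-0.77, adjusted p = 0.0141). ST8SIA1, the GD3 synthase, was the 1 that rose (0.82, adjusted p = 0.0300). Of 3 ligand carriers, MUC1 had 5.05 ± 1.38 and 2.48 ± 0.550 TPM (-1.25, adjusted p = 0.00901), LGALS3BP had 28.5 ± 5.31 and 18.1 ± 2.53 TPM (-0.64, adjusted p = 0.0212), and CD24 was not called at 0.987 ± 0.343 and 1.37 ± 0.273 TPM. The LGALS3BP change was thus negative in H1299 and positive in THP-1. Of 6 synthesis genes NANP rose (0.55, adjusted p = 0.0158) and 5 were not called, and of NEU1, NEU3 and CTSA only NEU3 rose (0.45, adjusted p = 0.0343) and 2 were not called. Of 8 signalling genes, 1 rose and 4 fell, among them LYN (-0.72, adjusted p = 0.00503), SRC (-0.44) and CSK (-0.43). Of 13 interferon-response genes, 2 rose, 1 fell and 10 were not called (median 0.28): IFIT1 had a change of 0.73 and OAS3 of -0.43. Many of these H1299 calls did not last: without OE replicate 2 the genes called among all tested went from 2669 to 514, and of the 12 genes named here by their p-values LYN and ST8SIA5 kept their calls. NEU3 and OAS3 lost theirs without any of 5 of the 6 libraries and IFIT1 without any of 4. With the replicate number as a block SRC, CSK, NANP, NEU3 and OAS3 were not called, and LYN was not called by limma on either TPM scale (largest adjusted p = 0.163).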

How the data were processed

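RNA from 6 H1299 and 6 THP-1 libraries was sequenced after mRNA enrichment. The authors deposited, per the labels and the table's header, estimated counts and TPM for 20307 genes. The submitters' processing notes name fastp 0.18.0, Bowtie2 2.2.8, HISAT2, StringTie 1.3.1, RSEM and hg38, with no order. The estimated counts were rounded and tested with edgeR 4.0.16 (R 4.3.3), using the quasi-likelihood test, TMM scaling, filterByExpr (minimum count 10) and Benjamini-Hochberg adjustment over all genes tested, with a threshold of 0.05. Each line was fitted alone with 6 libraries, and the comparisons between lines used all 12. The script was tested on simulated data. Deposited TPM gave levels, as mean ± SD over 3 libraries. DESeq2 1.42.0 and limma 3.58.1 served as alternatives. The members and lists were chosen with earlier results of these data known. All 8 members are named, and from each list up to 3 called genes with the smallest p-values per line. Other list genes were named after their values were seen, and some genes and a motif searched are not reported here. Intervals and the floor of 3 reads cover counting error only. Libraries held 14578887 to 26787853 reads. Window alignments used Biopython 1.88. No sample was left out, and the self-test is not quoted.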

Additional observations from a re-analysis of the deposited data

How the results depend on the processing

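SIGLEC1, SIGLEC9 and SIGLEC10 kept their direction and their calls in all 16 alternatives of the THP-1 comparison, with a largest adjusted p of 9.92e-07, 0.000153 and 0.00115. Of the 7 members tested in THP-1, 5 were called. DESeq2, all 12 samples in 1 fit, limma on log2(TPM + 1) and limma on log2(TPM + 0.1) each called 3. When 1 library was left out 3 to 5 were called, with 3 without TAM-C replicate 1, TAM-OE replicate 1 or TAM-OE replicate 2. Fewer genes were called at large in these settings too. Against 8941 of 13120 genes in the main fit, DESeq2 called 7686 of 14661 and the fit of all 12 samples 6164 of 14244. The 2 limma fits called 7721 and 7733 of 13120, and 8467 to 8725 genes were called when 1 library was left out. SIGLEC5 lost its call in 9 of the 16 alternatives (largest adjusted p = 0.154) and SIGLEC11 in 7 (0.191). The cause was not tested. The sign of the uncalled change of CD33 turned with library totals in place of TMM (0.0033, adjusted p = 0.965). In all alternatives run, 0 members were called within H1299, 7 between the lines and 0 for the difference of responses. These counts had little room to differ and do not show stability. Within H1299, 0 members were tested except without a filter (4) and with all 12 samples in 1 fit (7). Between the lines the filter fixed the direction, and for the difference only SIGLEC10 was tested.

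With the replicate number as a block, 5 members were called in THP-1, as without it. The counts of 0 in H1299, 7 between the lines and 0 for the difference of responses also stayed. Of the members, 0 were tested in H1299 and 1 for the difference, so these counts could hardly move. Deviations of same-numbered libraries correlated at 0.0297, 0.0505 and 0.0568 across genes in THP-1 and at -0.116, -0.283 and -0.273 in H1299. In THP-1 each TAM-OE library correlated best with the TAM-C library of its own number, though a differently numbered pair reached 0.0301. The THP-1 values are small, so whether the numbers mark a pairing cannot be told. In H1299 no library correlated best with its own number, and differently numbered pairs reached 0.256, 0.286 and 0.359. The block moved the genes called in H1299 from 2669 to 1797.

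Of all genes, 8941 were called in THP-1 and 4531 with the common spread of H1299. In H1299, 2669 were called, 514 without OE replicate 2, 1374 without OE replicate 1, 1649 without C replicate 3 and 5056 with all 12 samples in 1 fit. The median log2 difference between the lines was -0.04 in the main fit and 0.14 with DESeq2. DESeq2 was run without the filter on low counts, so the 2 medians cover different genes. On the 14244 genes of the main fit, DESeq2 size factors in edgeR gave 0.05. At 0 to 15 reads over 6 libraries a member's change in H1299 was not detectable, and 0 reads do not tell absence from a level under the floor.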
